A study of Rattus norvegicus with 4 samples.

Results

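The genes described here are 10 markers of microglia, the resident macrophages of the brain parenchyma: Cx3cr1, P2ry12, Csf1r, C1qa, C1qb, C1qc, Aif1, Tmem119, Trem2 and Tyrobp. They were found by their symbols, and all 10 were present, each as 1 annotated transcript, among 16260 genes listed in the prefrontal cortex of newborn rats. Microglia enter the brain from the embryonic yolk sac and depend on signals through the receptor Csf1r to survive. Around birth they engulf dying cells and surplus synapses, in part through complement proteins of the C1q family, and they sense nucleotides, lipids and the neuronal chemokine fractalkine through P2ry12, Trem2 and Cx3cr1. Csf1r, Aif1, C1q, Trem2 and Tyrobp are also made by the macrophages of the meninges and vessels, whereas P2ry12 and Tmem119 are the members most restricted to parenchymal microglia.

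The 4 libraries came from males and females, with 1 control and 1 BPA library of each sex. The dams, of the strain Wistar in the labels and Wistar Furth in the methods, had been gavaged each day with 5000 µg/kg bisphenol A (BPA, a plasticizer with estrogenic activity), or with the vehicle of ethanol in corn oil, from gestational day 1 until birth, and the pups were labelled as postnatal day 1. The labels name the tissue frontal cortex and the study calls it prefrontal cortex. The methods state that meninges were removed. They give several pups from independent litters for each sex and treatment, without saying whether RNA of several pups was pooled into the 1 library. With 1 library for each sex and treatment, no comparison within a sex has a replicate, so the spread between animals was not measured there. Depth, recovered from the expression values, lay between 8941000 and 9257250 fragments per library. Values are FPKM, the fragments of a transcript scaled by its length and by the depth of the library, which can be compared between genes.

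All 10 members were measured in every library, at low levels. Their mean FPKM over the 4 libraries ran from 0.703 for Tmem119 to 7.14 for Aif1, which placed them above 14.6% and 47.9% of the 15189 genes listed in all 4 libraries. In the control male the order by FPKM was Aif1, C1qa, Csf1r, C1qb, C1qc, P2ry12, Tyrobp, Trem2, Cx3cr1 and Tmem119. In the BPA female it was Csf1r, C1qb, C1qc, C1qa, Aif1, Tyrobp, Cx3cr1, P2ry12, Trem2 and Tmem119. Tmem119 was the lowest member in all 4 libraries, and neighbours in these orders often differed by less than their counting error.

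The summed FPKM of the 10 genes was 44.1 in the control male, 44.8 in the BPA male, 54.2 in the control female and 32.2 in the BPA female. The sums of the male pair were close and those of the female pair were the highest and the lowest. Without Tyrobp, whose control female value stood apart, the sums were 42.1, 41.3, 46.1 and 30.2 in the same order. In bulk tissue, fewer cells of a type and less RNA per cell cannot be told apart.

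**Figure D1:**
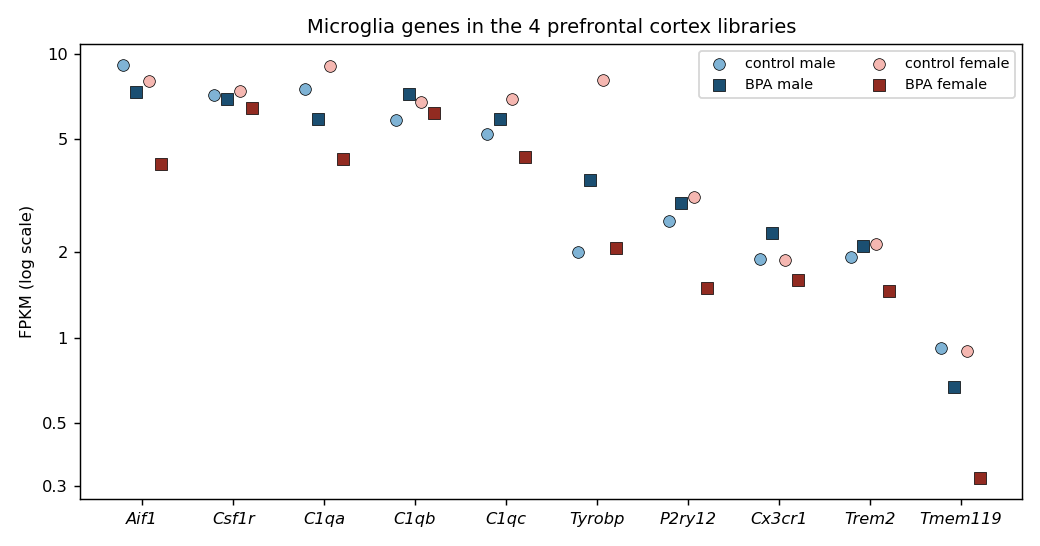
FPKM of the 10 microglia genes (log scale) in the 4 libraries, with circles for control, squares for BPA, blue for males and red for females, ordered by mean FPKM from left to right. Each point is 1 library and has no error bar; the BPA female is the lowest point for 8 of the 10 genes, the exceptions being C1qb and Tyrobp.

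Within females, all 10 members were lower in the BPA library than in the control library, where 58.2% of all 12526 genes with a mean FPKM of at least 1 were. Within males, 4 of 10 were lower in the BPA library, where 56.4% of all genes were. Once each library was centred on its median gene, 3 of 10 were lower in males, since Csf1r turned from -0.04 to 0.01, and 10 of 10 in females. Their median log2 ratio of FPKM + 0.5 (BPA to control) was -0.70 in females and 0.13 in males, beside -0.04 in each sex over all genes tested. On this scale C1qa and Tyrobp were at or below -1 in females (2.32% of all genes), and no member was at or beyond 1 in either direction in males (1.24% of all genes lower, 0.615% higher). The BPA female held the lowest FPKM of the 4 libraries for 8 members (30.5% of all genes). Against the control male in place of the control female, a choice made after seeing the data that also changes the sex, the BPA female was lower for 8 members (59.0% of all genes), with C1qb and Tyrobp as the exceptions. The BPA female also lay below the BPA male for all 10 members, where 52.9% of all genes did.

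Markers of other cells differed between the same libraries. The 12 markers of meninges and fibroblasts summed to an FPKM of 490 in the control male, 223 in the BPA male, 632 in the control female and 153 in the BPA female, and the 8 border macrophage markers found out of 12 to 12.9, 6.95, 15.1 and 6.80. The 10 endothelial and mural markers found summed to 133, 110, 151 and 95.8. These 3 sums were lower in the BPA library than in the control library of both sexes. The sum of the microglia genes was lower in the BPA female, and in males it was nearly level, slightly higher in the BPA library with Tyrobp and slightly lower without it. Of the border macrophage markers, Ms4a7, Stab1, Cd209a and Cbr2 were absent from the files and Cd163, Siglec1, Folr2 and Cd74 had a mean FPKM under 1. The part of these cells in the microglia values was not tested.

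The C1q genes encode the 3 chains of the molecule that starts the classical complement cascade and tags material for uptake. In the RefSeq gene table of the assembly GRCr8 they follow one another on chromosome 5 as C1qb, C1qc and C1qa. Because C1qa and C1qb differed most among the 3 chains, the 250 bases upstream of their annotated starts are shown, from RefSeq (GRCr8, C1qa at chr5:154419934-154420183 and C1qb at chr5:154407828-154408077, both on the minus strand). Capitals mark matches on either strand to GAGGAA, a core bound by the myeloid factor PU.1, and to GGAAGT, a core of the ETS family. PU.1 belongs to this family, and the motifs share the letters GGAA and can overlap.
C1qa: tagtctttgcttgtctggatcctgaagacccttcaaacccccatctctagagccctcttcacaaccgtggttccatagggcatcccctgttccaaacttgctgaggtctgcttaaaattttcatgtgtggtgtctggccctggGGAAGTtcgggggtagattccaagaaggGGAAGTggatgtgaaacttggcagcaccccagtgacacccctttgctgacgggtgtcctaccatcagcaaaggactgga
C1qb: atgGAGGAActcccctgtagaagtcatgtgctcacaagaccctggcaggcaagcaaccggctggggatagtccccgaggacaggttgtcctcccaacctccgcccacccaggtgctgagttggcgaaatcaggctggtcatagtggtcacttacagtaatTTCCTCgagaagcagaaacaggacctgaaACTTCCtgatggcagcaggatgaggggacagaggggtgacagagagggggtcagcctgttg
GAGGAA had no match upstream of C1qa and 2 upstream of C1qb, and GGAAGT had 2 and 1. Among 33469 promoter windows of this length, 23.3% held GAGGAA and 19.2% held GGAAGT. Promoter windows were found for 5 of the 10 members. Csf1r had 2 matches to GAGGAA and none to GGAAGT, Trem2 had 1 and none, and Cx3cr1 had none to either. The members named only, with no promoter sequence read, are P2ry12, C1qc, Aif1, Tmem119 and Tyrobp. A match is a run of letters and does not show binding, and a lack of GAGGAA does not show that PU.1 has no site.

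C1qa had an FPKM of 7.5 in the control male, 5.87 in the BPA male, 9.03 in the control female and 4.26 in the BPA female. Both BPA libraries lay below both controls. These values stood for 67, 52, 78 and 37 estimated fragments. The log2 ratio of fragments scaled to depth was -1.08 in females (95% exact counting interval -1.69 to -0.50), with an adjusted p = 0.00125 in an exact conditional binomial test on the fragments of the 2 libraries, here called the fragment test. This test compares the 2 libraries and not the treatments, since its error is counting error only. In males the ratio was -0.35 (-0.90 to 0.19), with an adjusted p = 0.431 in the same exact test.

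C1qb had an FPKM of 5.83 in the control male, 7.18 in the BPA male, 6.75 in the control female and 6.20 in the BPA female. Its range over the 4 libraries was the smallest of the 3 chains, and the groups overlapped. The log2 fragment ratio was 0.30 in males (-0.22 to 0.83) and -0.12 in females (-0.65 to 0.41).

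C1qc had an FPKM of 5.19 in the control male, 5.88 in the BPA male, 6.93 in the control female and 4.33 in the BPA female. Its groups overlapped, with the 2 female libraries at the ends. The log2 fragment ratio was 0.18 in males (-0.41 to 0.77) and -0.68 in females (-1.29 to -0.07), and the female difference missed the threshold of 0.05 in the exact fragment test after adjustment (adjusted p = 0.0891).

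The proportion of the 3 chains was therefore not the same in all libraries, an observation made after seeing the data. C1qa made up 40.5% of the summed FPKM of the chains in the control male, 31.0% in the BPA male, 39.8% in the control female and 28.8% in the BPA female. C1qb made up 31.5%, 37.9%, 29.7% and 41.9% in the same order, and C1qc stayed between 28.0% and 31.1%. C1qa was the most abundant chain in both controls and C1qb in both BPA libraries. The ratio of C1qa to C1qb went from 1.29 in the control male to 0.818 in the BPA male and from 1.34 in the control female to 0.687 in the BPA female. On the log2 scale this change was -0.66 in males (95% counting interval by a normal approximation -1.38 to 0.07) and -0.96 in females (-1.72 to -0.20), so that the interval left out 0 in females and held it in males. This pair of chains was chosen because it differed most. For C1qa to C1qc the change was -0.54 in males (-1.30 to 0.23) and -0.41 in females (-1.21 to 0.40), and for C1qc to C1qb it was -0.12 (-0.87 to 0.63) and -0.55 (-1.32 to 0.21), with intervals that all held 0. Such a ratio shows unequal values of the chains and does not tell which chain moved.

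**Figure D2:**
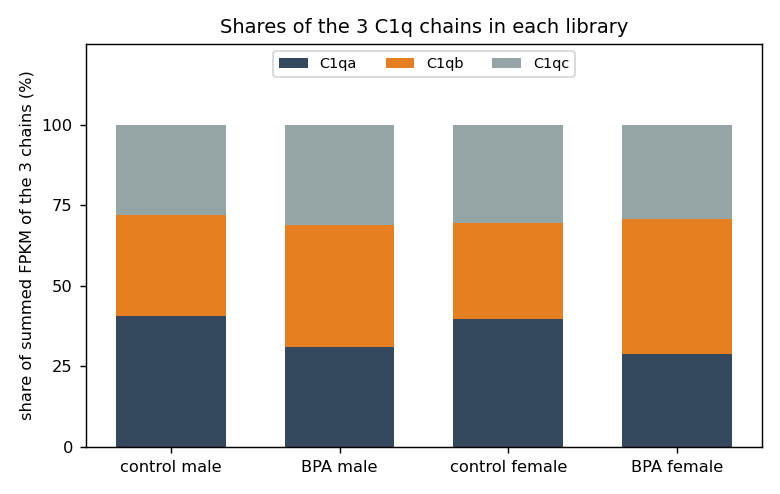
Stacked bars of the share (%) of the summed FPKM of C1qa, C1qb and C1qc in each of the 4 libraries, 1 library a bar and no error bars. The C1qa share was 40.5% and 39.8% in the control libraries and 31.0% and 28.8% in the BPA libraries, and the C1qc share hardly moved.

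Csf1r, the receptor for colony stimulating factor 1 and interleukin 34, had an FPKM of 7.13 in the control male, 6.93 in the BPA male, 7.37 in the control female and 6.45 in the BPA female. It was the most precisely measured member, with 299 to 341 fragments in a library. Its 4 values lay close together, and both BPA values were below both controls by small margins. The log2 fragment ratio was -0.04 in males (-0.27 to 0.18) and -0.19 in females (-0.42 to 0.04), and the counting intervals hold no decrease below these bounds.

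P2ry12, a purinergic receptor that guides microglial processes toward nucleotides, had an FPKM of 2.58 in the control male, 2.98 in the BPA male, 3.13 in the control female and 1.49 in the BPA female. The BPA female stood below the other 3 libraries. With 38, 44, 45 and 21 fragments, the log2 fragment ratio was 0.22 in males (-0.44 to 0.89) and -1.11 in females (-1.93 to -0.33), the latter with an adjusted p = 0.0190 in the exact fragment test.

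Cx3cr1, the fractalkine receptor, had an FPKM of 1.89 in the control male, 2.34 in the BPA male, 1.87 in the control female and 1.59 in the BPA female. The groups overlapped and the 2 controls were nearly equal. On 18 to 27 fragments, the log2 fragment ratio was 0.31 in males (-0.56 to 1.19) and -0.23 in females (-1.22 to 0.75).

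Tmem119, a membrane protein widely used to tell parenchymal microglia from other macrophages, had an FPKM of 0.92 in the control male, 0.67 in the BPA male, 0.90 in the control female and 0.32 in the BPA female. Both BPA values lay below both controls, but the values stood for 18, 13, 17 and 6 fragments only. The log2 fragment ratio was -0.46 in males (-1.61 to 0.65) and -1.51 in females (-3.14 to -0.10), and neither passed the exact fragment test (adjusted p = 0.722 and 0.0897).

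Trem2, a receptor for lipids and lipoproteins, had an FPKM of 1.93 in the control male, 2.11 in the BPA male, 2.14 in the control female and 1.46 in the BPA female. The groups overlapped. On 14 to 20 fragments, its log2 fragment ratio was 0.09 in males (-0.89 to 1.07) and -0.52 in females (-1.62 to 0.54).

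Tyrobp, also called DAP12, is the adaptor through which Trem2 signals. Its FPKM was 2.0 in the control male, 3.58 in the BPA male, 8.05 in the control female and 2.06 in the BPA female. The control female stood far above the other 3 libraries, and the BPA female was level with the control male. The 9, 16, 35 and 9 fragments gave a log2 fragment ratio of 0.84 in males (-0.42 to 2.20) and -1.97 in females (-3.21 to -0.88), with an adjusted p = 0.000750 for females in the exact fragment test. The 2 controls differed from each other by a log2 ratio of 2.01 (female to male, 0.92 to 3.25), as much as the female libraries did. The ratio of Tyrobp to Trem2 FPKM was 1.04 in the control male, 1.70 in the BPA male, 3.76 in the control female and 1.41 in the BPA female.

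Aif1, which encodes the calcium-binding protein Iba1 of macrophage membrane ruffles, had an FPKM of 9.14 in the control male, 7.30 in the BPA male, 8.03 in the control female and 4.08 in the BPA female. Both BPA libraries were below both controls. On 53, 42, 45 and 23 fragments, the log2 fragment ratio was -0.32 in males (-0.94 to 0.29) and -0.97 in females (-1.77 to -0.22), the latter with an adjusted p = 0.0391 in the exact fragment test.

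In all, 4 members (P2ry12, C1qa, Aif1 and Tyrobp) were lower in the BPA female than in the control female by the fragment test, where 13.5% of all genes were, and no member was called in males, where 12.2% of all genes were lower and 7.47% higher. At an unadjusted p under 0.05, 6 members passed in females (30.9% of all genes) and 0 in males (29.8%). No member was higher in the BPA female, where 7.03% of all genes were. An extra coefficient of variation of 0.1 was allowed for in another test, a normal approximation on the fragments plus 0.5. There Tyrobp alone passed among the members (adjusted p = 0.0277 in females by this approximation). Beside it, 2.53% of all genes were lower in females and 1.23% in males. Because the test also changed, the fewer calls cannot be laid to the added variation alone. The true variation between animals was not measured.

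**Figure D3:**
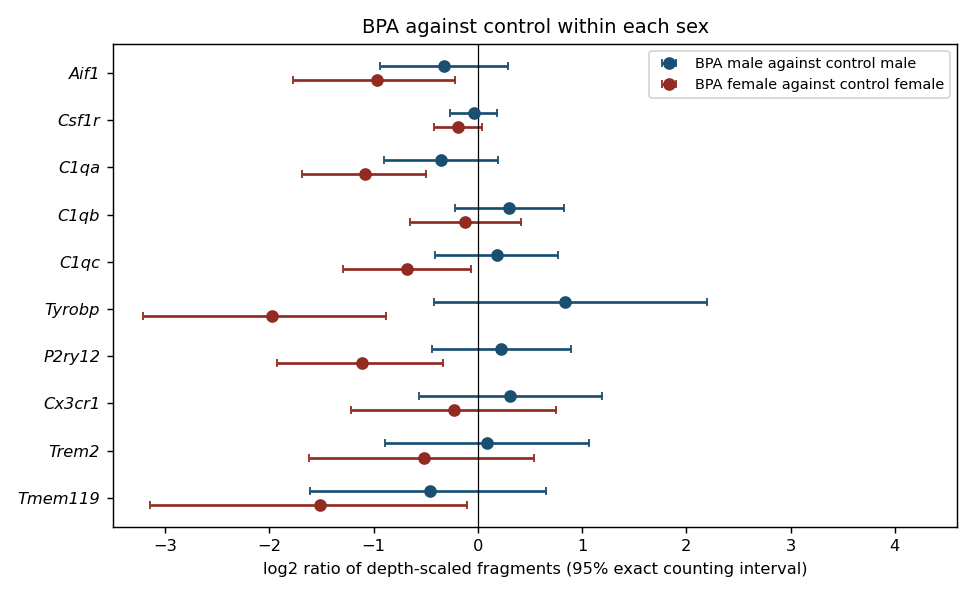
Log2 ratio of depth-scaled estimated fragments, BPA to control, for each microglia gene, in males (blue) and females (red), with 95% exact counting intervals as bars, which leave out variation between animals. All male intervals hold 0, and the female intervals of P2ry12, C1qa, C1qc, Aif1, Tmem119 and Tyrobp lie below 0.

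The difference between the sexes was taken as the female minus the male log2 fragment ratio. It was below 0 for every member, and its 95% counting interval, by a normal approximation, lay below 0 for 3 of 10, where 10.7% of 12461 genes with fragments in every library did, and above 0 for none, where 8.74% did. These were Tyrobp (-2.81, -4.39 to -1.23), P2ry12 (-1.33, -2.30 to -0.35) and C1qc (-0.86, -1.66 to -0.05). For C1qa the difference was -0.73 (-1.50 to 0.04) and for Aif1 -0.65 (-1.58 to 0.28), so that both intervals held 0. For Csf1r it was -0.15 (-0.46 to 0.17). With 1 library a group this difference cannot be tested among animals.

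To compare BPA with control over both sexes, the 2 sexes were taken as replicates of a treatment in limma, on log2(FPKM + 0.5) of genes with a mean FPKM of at least 1, which left out Tmem119. None of the 9 members tested passed an adjusted p of 0.05, beside 1.77% of all genes that were lower and 0.255% that were higher. These shares stood for 222 and 32 of 12526 genes, and for 135 and 47 once each library was centred on its median gene. At an unadjusted p under 0.05, 2 members passed, C1qa and Aif1, where 19.5% of all genes did. The largest limma log2 ratio was that of C1qa, at -0.67 (SE 0.173, 95% interval -1.07 to -0.26, adjusted p = 0.105). Aif1 followed at -0.60 (SE 0.233, -1.14 to -0.06, adjusted p = 0.218), and it came to -0.99 without the BPA male (adjusted p = 0.0440 in limma) and to -0.22 without the BPA female (adjusted p = 0.503 in limma). Each omission leaves 1 BPA library, so that the spread comes from the 2 controls and the lone library is assumed to vary like them. Tyrobp was at -0.52 with a wide interval (-1.70 to 0.67), and without the control female its value was 0.37. P2ry12 was at -0.35 (-1.0 to 0.31) and at 0.06 without the BPA female.

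The other members lay closer to 0. C1qc was at -0.23 (-0.67 to 0.22), Trem2 at -0.16 (-0.71 to 0.38), Csf1r at -0.11 (-0.38 to 0.17), Cx3cr1 at 0.03 (-0.51 to 0.58) and C1qb at 0.08 (-0.24 to 0.41), all on the limma log2 scale. With 1 library left out, C1qc ran from -0.43 without the BPA male to -0.03 without the BPA female, and Csf1r from -0.16 to -0.06 with the same omissions. Trem2 came to 0.04 without the BPA female, Cx3cr1 to -0.19 without the BPA male, and C1qb to -0.02 without either male library. Both BPA libraries lay below both controls for 4 of 10 members (Csf1r, C1qa, Aif1 and Tmem119), where 32.6% of all genes showed this order. Female against male over both treatments gave no call among the members (adjusted p = 1.000 for all 9 in limma, 0 at an unadjusted p under 0.05, where 2.26% of all genes passed), and 2 genes in all, 0.0160%, were called.

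**Figure D4:**
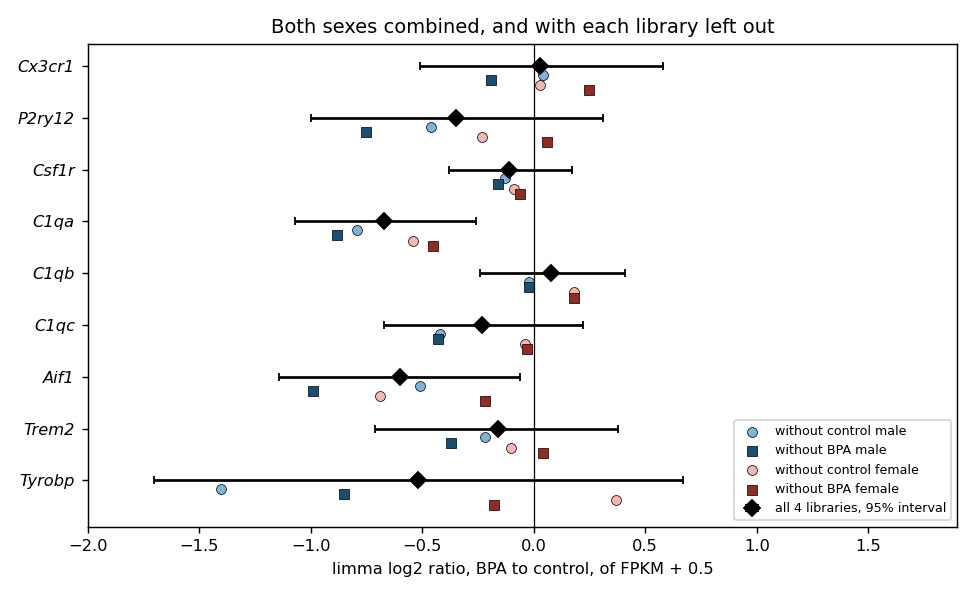
Limma log2 ratio of FPKM + 0.5, BPA to control, of the 9 microglia genes tested (black diamonds with 95% intervals, 2 libraries a treatment), and the same value with each library left out (circles, a control left out; squares, a BPA library left out). The intervals of C1qa and Aif1 lie below 0, and Tyrobp ran from below -1 to 0.37 depending on the library left out.

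The ligands of these receptors were mostly measured at higher levels. Apoe, a lipoprotein bound by Trem2 and made by astrocytes, microglia and meningeal cells, had an FPKM of 218.1 in the control male, 139.9 in the BPA male, 261.9 in the control female and 102.4 in the BPA female. It fell under BPA (limma log2 ratio -0.99, adjusted p = 0.0212), the only 1 of 5 ligands to pass. The call was lost without the filter on low values (adjusted p = 0.156 in limma), without a trend in the prior variance (0.141), and without the control female (0.102) or the BPA female (0.0511). All 23 genes called over the marker lists, those named next included, were likewise lost without the filter (adjusted p from 0.0863 to 0.173 in limma) and without a trend (from 0.0620 to 0.170), and all 23 stayed lower under BPA in both fits. Il34, a Csf1r ligand of neurons, stayed between 17.9 and 19.8 FPKM (0.03, adjusted p = 0.885). Csf1, the other Csf1r ligand, was at 3.34, 2.48, 3.60 and 1.88 FPKM in the order used for Apoe (-0.58, adjusted p = 0.177). Cx3cl1, the fractalkine bound by Cx3cr1, was at 15.8 to 18.4 FPKM (-0.01, adjusted p = 0.980). Csf1 and Cx3cl1 were named after their values were seen.

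Of 26 further genes of microglial identity and lineage, 13 were measured at a mean FPKM of 1 or more and none passed the limma test. Their median log2 ratio was -0.24, and 5 had an unadjusted p under 0.05 in limma, where 19.5% of all genes did. Mef2a and Tgfbr1, among the most abundant of them, are also made by many other brain cells. Mef2a, a transcription factor, was at 20.8 to 22.7 FPKM in the 4 libraries (-0.10, adjusted p = 0.527), and Tgfbr1, a receptor for TGF-beta, was highest in the BPA female at 22.7 FPKM (0.31, adjusted p = 0.135). Spi1, the gene of PU.1, was under the filter at 0.99, 1.00, 0.85 and 0.85 FPKM in the order used for Apoe, and Irf8, another transcription factor of macrophages, at 0.89, 0.27, 0.83 and 0.37 FPKM. Spi1 was level across the libraries and Irf8 was lower in both BPA libraries. Both were named after their values were seen. Siglech and Fcrls were absent from the files.

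Of 18 pan-myeloid genes, 8 were tested in limma and none passed, with a median of -0.42. At an unadjusted p under 0.05 in limma there were 4, where 19.5% of all genes were. Fcer1g, an adaptor chain of immune receptors related in function to Tyrobp, was at 7.78, 6.01, 8.79 and 3.16 FPKM (-0.85, adjusted p = 0.137). Its control female was close to its control male, which was not so for Tyrobp. Of 10 genes acting downstream of Trem2 and Tyrobp, only Ptpn6 was abundant enough to test (-0.54, adjusted p = 0.329). Of 15 inflammatory mediators, Tnf and Nfkbia were tested in limma and neither passed, nor at an unadjusted p under 0.05. The Tnf value rests on a short listed transcript, and whether it measures Tnf was not tested. Il6 and Ccl4 were absent from the files.

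Of 20 genes of the amoeboid, phagocytic microglia of the neonatal brain, 16 were tested, with a median of -0.41. At an unadjusted p under 0.05 in limma there were 11, where 19.5% of all genes were. In the fit with the filter and the trend, 3 of the 16 fell and none rose. Among them, Igf1 was not called with any 1 library left out, Cd63 not without the control female and Lgals1 not without the BPA female. Lgals1, a galectin, went from 21.4 FPKM in the control male to 11.8 in the BPA male, and from 26.5 in the control female to 11.6 in the BPA female (-0.99, adjusted p = 0.00945). Igf1, a growth factor, fell from 7.47 to 3.37 and from 6.01 to 3.10 FPKM (-0.95, adjusted p = 0.0326). Cd63, a protein of endosomes, fell from 73.0 to 50.02 and from 73.6 to 50.4 FPKM (-0.54, adjusted p = 0.00945). All 3 are also made by cells of the meninges or vessels. Fth1, Fabp5 and Ctsb, the most abundant of the list, were within 0.10 of 0 on the limma log2 scale, and many brain cells make them.

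Of 19 complement genes beyond C1q, 10 were tested, with a median limma log2 ratio of -0.28. C3, the component cleaved downstream of C1q, was at 0.02 to 0.15 FPKM in the 4 libraries. C1r, the protease that joins C1q, was at 4.86, 2.75, 5.39 and 1.91 FPKM in the order used for Apoe (limma -1.01, adjusted p = 0.0501). C3 and C1r were named after their values were seen.

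Markers of other cells gave the setting. Of 12 meningeal and fibroblast markers, 10 fell and none rose (median -1.45) in that same fit, the calls of which were lost without the filter or the trend, among them Col1a1 (-1.51, adjusted p = 0.00480) and Igf2 (-1.88, adjusted p = 0.00285). Of 4 border macrophage markers tested, Lyve1 fell (-1.22, adjusted p = 0.0225) and Mrc1 missed the threshold (-0.95, adjusted p = 0.0808), with a list median of -0.82. Of 10 endothelial and mural markers 3 fell (Rgs5, Acta2 and Tek), of 9 astrocyte and radial glia markers 2 (Aqp4 and Slc1a3), and of 11 neuronal markers 2 (Slc17a7 and Slc17a6). Of these, Lyve1, Rgs5, Acta2 and Tek were not called with any 1 library left out. None of 8 oligodendrocyte, 8 cycling cell and 5 blood markers passed, with 3, 2 and 0 at an unadjusted p under 0.05 in limma (19.5% of all genes). Markers of infiltrating blood cells were at low levels or absent: 8 of 10 lymphocyte markers were absent, the rest summed to at most 0.200 FPKM, and 10 markers of monocytes and granulocytes summed to between 1.27 and 3.34 FPKM, with Mpo, Elane, Ly6c and Camp absent. The part of any of these cells in the microglia values was not tested.

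**Figure D5:**
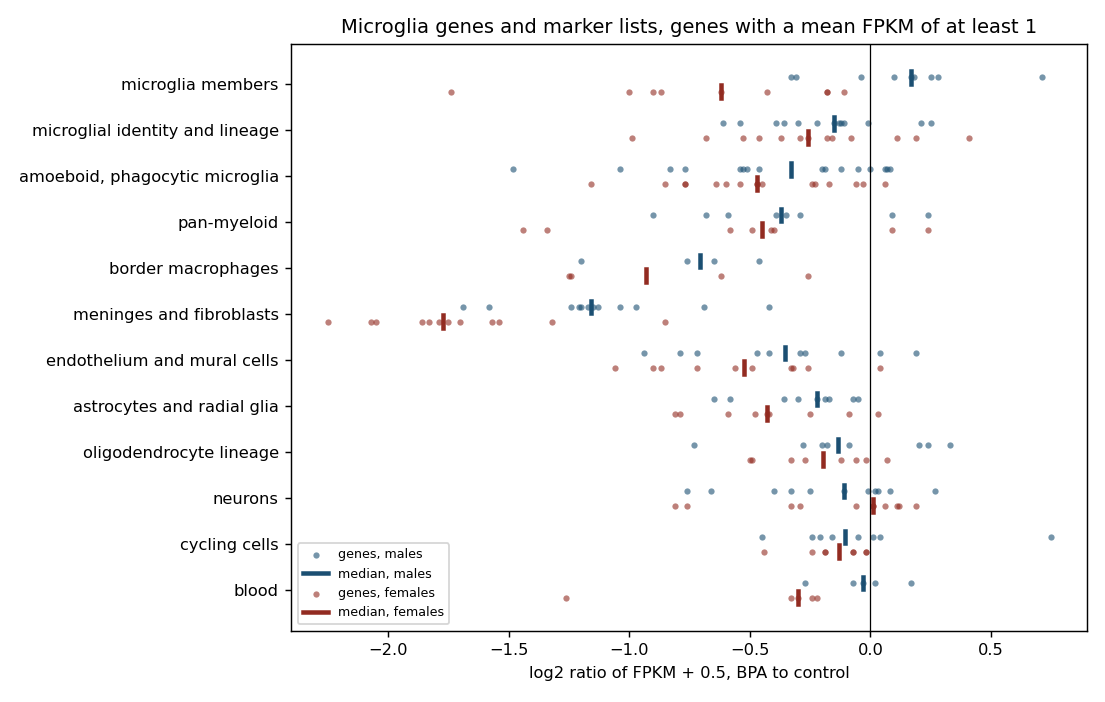
Log2 ratio of FPKM + 0.5, BPA to control, of each tested gene (points) and the list median (vertical ticks) in males (blue) and females (red), for the 9 tested microglia genes and 11 marker lists, 1 library a group and no error bars. The microglia medians were 0.17 in males and -0.62 in females over the 9 tested genes, and the meningeal and fibroblast medians -1.16 and -1.77.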

How the data were processed

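RNA from prefrontal cortex was sequenced by the authors on the Illumina platform after oligo(dT) selection, mapped to Rnor_6.0 (rn6) and quantified with RSEM. The labels also name Bowtie2 and HISAT, and the versions are not given in the sources used here. The deposited values are FPKM, which the authors had scaled to transcript length and library size, with 2 decimals and a lowest value of 0.01, which was taken as 0 in sums. Counts were not used here, so depth was recovered as the number of fragments that made scarce transcripts whole (effective length taken as length minus 60 bases). Between 88.1% and 90.0% of 1593 to 1725 scarce transcripts came within 0.1 of a whole number. Of 17419 transcripts, 14008 carried an NCBI Gene ID, and 13923 of these were in the RefSeq table of GRCr8, used for names and gene order only. FPKM was summed into 16260 genes.

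Groups came from the sample labels. BPA was compared with control with limma (version 3.58.1, under R 4.3.3), using log2(FPKM + 0.5) of genes whose mean FPKM reached 1, an intensity trend for the prior variance, sexes as replicates, 2 residual degrees of freedom and Benjamini-Hochberg adjustment over all genes. Within a sex, an exact conditional binomial test on estimated fragments was adjusted in the same way over all genes with fragments. Its intervals cover counting error only. Two-sided tests were used throughout. Whether pups were pooled is not stated, and p-values from limma measure the spread between these libraries, sex included. The scripts were tested on simulated data. Python 3.11.15 with scipy 1.17.1 was used.

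The members and gene lists were chosen with earlier results of these data known. All members are named, and from each other list the genes past the limma threshold (up to 6) and the 3 with the highest mean FPKM could be named, with exceptions stated. Alternatives were other pseudocounts, filters, row groupings and scalings, a sex block, no trend, leaving out each library and an added coefficient of variation. Some results for single genes of these lists are not reported here.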

Additional observations from a re-analysis of the deposited data

Results flagged for a closer look

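For 6 members the BPA library lay above the control in males and below it in females, an order shown by 17.1% of all genes tested. The log2 ratios of FPKM + 0.5 in males and females were 0.25 and -0.18 for Cx3cr1, 0.18 and -0.87 for P2ry12, 0.28 and -0.11 for C1qb, 0.17 and -0.62 for C1qc, 0.10 and -0.43 for Trem2, and 0.71 and -1.74 for Tyrobp. Each sex has 1 library a treatment, so the difference between the sexes was not tested among animals. On counting error alone it excluded 0 for P2ry12, C1qc and Tyrobp, as given above. For Cx3cr1, C1qb and Trem2 the counting intervals of both sexes held 0.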

How the results depend on the processing

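Over both sexes, 32 genes were higher and 222 lower. Without the filter on low values 0 and 0 passed (limma), with rows carrying a Gene ID only 74 and 403, with each transcript on its own 14 and 60, and without a trend 1 and 1. Lower genes numbered 135 with median centring and 111 with quantile normalization. With sex as a replicate block, 88 were higher, and no microglia gene was called. Leaving out 1 library gave 7 to 26 higher and 30 to 173 lower genes, the fewest lower without the control female. Over these omissions, 6 of 36 limma values of members changed sign: Cx3cr1 ran from -0.19 to 0.25, P2ry12 from -0.75 to 0.06, C1qb from -0.02 to 0.18, Trem2 from -0.37 to 0.04 and Tyrobp from -1.40 to 0.37. Of 95 other limma values of members, 1 changed sign (Trem2, 0.02 under quantile normalization), as did 1 of 80 values within a sex (Csf1r in males, 0.01 with median centring). Of 23 list genes called, 0 were called without the filter or the trend (limma), 23 with the sex block, 19 with median centring, 16 with quantile normalization and 9 to 15 with 1 library left out. Genes at or beyond 1 in males were 77 higher and 155 lower; with a pseudocount of 0.1, 251 were lower, with 1, 92, with 5, 9 higher and 12 lower, and without a filter 127 and 269. In females they were 67 and 290; with a pseudocount of 1, 190 were lower, with 5, 1 higher and 34 lower, and without a filter 126 were higher. A normal approximation that allowed a coefficient of variation of 0.1 gave 92 higher and 193 lower genes in males and 95 and 398 in females. The exact fragment test had given 1172 and 1912 in males and 1107 and 2130 in females. Females differed from males in 2 genes, and in 5 with treatment as a block. The causes were not tested. Members rest on 6 to 341 fragments a library, and 1 library a group leaves variation between animals unmeasured within a sex.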
